A study of Mus musculus with 2 samples.

Results

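The complement system is a set of plasma proteins and membrane receptors that mark and lyse targets in a cascade of proteolytic steps. The classical pathway starts when C1q binds antibody or damaged surfaces, the lectin pathway when mannose-binding lectins or ficolins bind sugars, and the alternative pathway from slow hydrolysis of C3, and all converge on cleavage of C3 and assembly of the membrane attack complex. Hepatocytes are the main source of most circulating components, whereas macrophages make C1q and properdin and carry receptors for the released peptides.

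The complement genes described here were the 33 listed components, regulators and receptors found by symbol among 38320 gene entries of RNA-seq on hepatic stromal cells. A mean level of at least 1 FPKM (sequenced fragments relative to transcript length and library size, so that levels can be compared between genes) was reached by 32 of the 33, and by 12692 genes in all. Adult male C57/Bl6 mice received carbon tetrachloride (CCl4), a hepatotoxin, for 5 weeks, together with tamoxifen. Liver cells that adhered to culture dishes within 2 h were pooled into 1 control library (Foxf1 fl/fl, with both Foxf1 alleles floxed) and 1 knockout library (αSMACreER;Foxf1 fl/fl, with the same floxed alleles and a tamoxifen-inducible Cre driven by the α-smooth muscle actin promoter, which acts in cells that express that actin, such as myofibroblasts). The number of mice behind each pool is not given in the sources used here. Each genotype had 1 library, so that no difference could be set against replicate error and p-values are absent. The libraries held roughly 9748818 and 11330472 mapped reads by estimate, from which each log2 fold change has an approximate 95% counting interval that covers counting error only.

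The label of the cells as stromal was read against cell type markers. The desmin gene Des had 1.70 FPKM in control and 3.29 in knockout cells, Acta2 (α-smooth muscle actin) had 7.77 and 5.65, Pdgfrb had 1.03 and 1.43, and the stellate cell gene Lrat had 0.078 and 0.11. The matrix genes of the same list were more abundant, with Dcn (decorin) the highest at 127 and 186 FPKM, Col3a1 at 115 and 164, Col1a1 at 70.2 and 103, and Lum at 10.7 and 15.7. The median over 15 macrophage markers was 324 FPKM in control and 308 in knockout cells, with Lyz2 the most abundant at 3682 and 3395. The median over 17 hepatocyte markers was 94.3 and 26.9, with Alb at 2292 and 912. Both libraries therefore held RNA of macrophages and hepatocytes as well as of stromal cells that express matrix genes. Lrat and 2 further genes of the stellate list, Reln (0.68 and 0.31 FPKM) and Ngfr (0.13 and 0.076), were below the filter. In such bulk samples fewer cells of a type and less RNA per cell cannot be told apart.

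The 33 genes were divided by the usual source of the protein in liver, from general knowledge, into 8 made by macrophages and other myeloid cells, 15 made mainly by hepatocytes and 10 with several sources. The hepatocyte-made genes were lower in knockout than in control cells by a median log2 fold change of −1.62, against −0.41 for the macrophage-made genes, −0.081 for those with several sources and 0.0050 for all 12692 genes. The hepatocyte-made and macrophage-made medians were 1.22 apart on the log2 scale. The macrophage-made median became −0.21 with libraries scaled to the same FPKM sum. It became −0.057 with the trend of fold change with transcript length removed. Of the 32 genes past the filter, 14 were at least 1.5-fold lower in knockout cells, where 13.2% of all genes were, and 12 of these 14 were hepatocyte-made. Only Masp1 was at least 1.5-fold higher, where 12.8% of all genes were. Among all genes past 1.5-fold, 50.8% were lower. With libraries scaled to the same FPKM sum this share was 29.6% (1130 lower and 2690 higher), and 12 complement genes were lower.

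**Figure D1:**
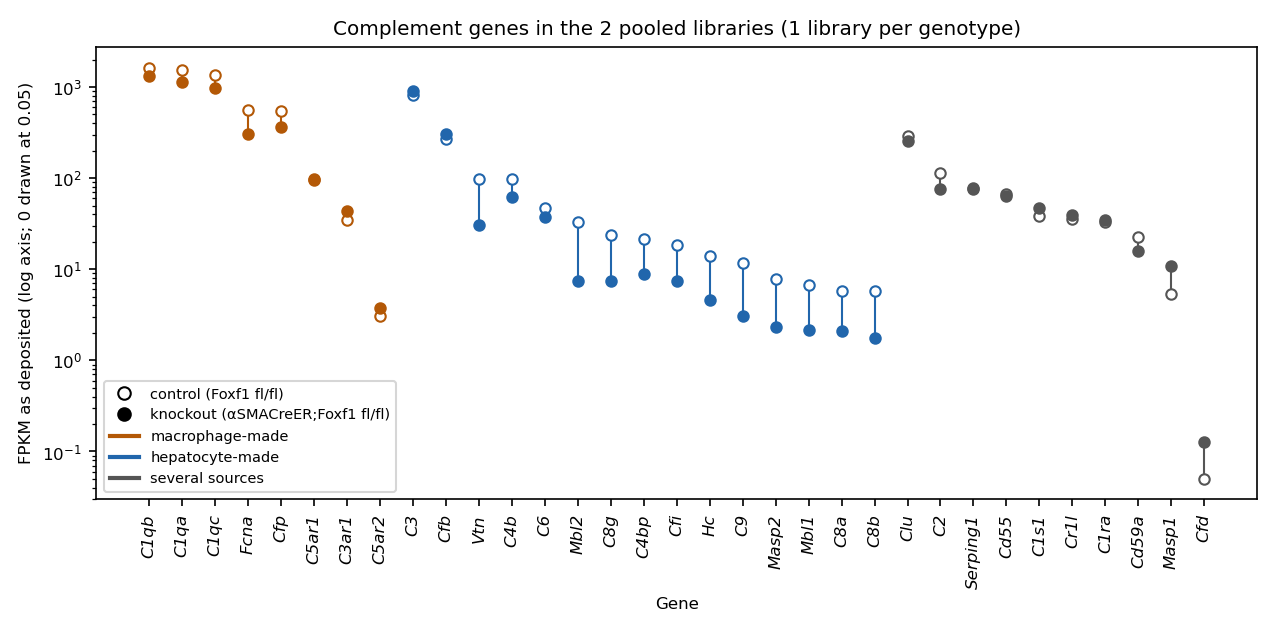
Each column is 1 complement gene, with its level in FPKM on a log axis in the control library (open circles) and the knockout library (filled circles), coloured by the usual source of the protein. The C1q genes stand between 982 and 1632 FPKM in both libraries, while most hepatocyte-made genes drop from control to knockout and C3 and Cfb do not.

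The letters of the promoters of C3 and C9, an abundant hepatocyte-made gene that was not lower and a scarce one that was, and of the neighbouring genes C8a and C8b, which were lower together, are shown as examples. Each run holds the 250 bases before the RefSeq start of the gene on GRCm38.p6, 5′ to 3′ on the strand of the gene. The sequences lie at chr17:57228137-57228386 (minus strand) for C3, chr15:6445096-6445345 (plus strand) for C9, chr4:104876399-104876648 (minus strand) for C8a and chr4:104766067-104766316 (plus strand) for C8b. Capitals mark letters of the C/EBP motif (TTGCNNAA, either strand) in C3 and C9 and of a core of the HNF1 motif (GTTAAT, either strand) in C8a and C8b, both factors being known for hepatocyte gene expression.
C3: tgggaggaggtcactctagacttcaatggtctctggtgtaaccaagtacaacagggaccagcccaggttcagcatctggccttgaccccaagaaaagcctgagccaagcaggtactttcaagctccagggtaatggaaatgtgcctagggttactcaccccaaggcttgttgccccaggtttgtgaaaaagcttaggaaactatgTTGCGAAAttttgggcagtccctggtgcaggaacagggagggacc
C9: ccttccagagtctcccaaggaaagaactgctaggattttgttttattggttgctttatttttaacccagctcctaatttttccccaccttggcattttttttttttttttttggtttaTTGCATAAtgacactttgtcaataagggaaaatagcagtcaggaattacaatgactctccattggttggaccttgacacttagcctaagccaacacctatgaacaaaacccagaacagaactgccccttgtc
C8a: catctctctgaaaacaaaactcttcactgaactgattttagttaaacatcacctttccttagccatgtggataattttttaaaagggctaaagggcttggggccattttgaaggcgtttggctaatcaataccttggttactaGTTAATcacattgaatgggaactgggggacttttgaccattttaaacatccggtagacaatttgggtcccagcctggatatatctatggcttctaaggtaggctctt
C8b: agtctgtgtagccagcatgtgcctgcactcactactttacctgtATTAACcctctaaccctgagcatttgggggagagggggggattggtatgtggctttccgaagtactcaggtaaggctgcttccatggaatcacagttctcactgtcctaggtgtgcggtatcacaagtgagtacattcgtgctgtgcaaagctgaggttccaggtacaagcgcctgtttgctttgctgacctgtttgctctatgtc
The C/EBP letters began 45 bases before the start in C3 and 132 before it in C9, and the HNF1 letters 107 before it in C8a and 206 before it in C8b. A promoter was at hand for 25 of the 33 genes. The HNF1 letters were in 5 of 12 hepatocyte-made promoters (C4bp, C8a, C8b, Hc and Vtn), in 1 of 7 macrophage-made ones (Cfp) and in 1 of 6 with several sources (C1ra), and in 6.43% of all 32851 promoters. The C/EBP letters were in C3, C9, C5ar2 and C1s1 and in 9.56% of all promoters. The letters of a PU.1 core, GAGGAAG on either strand, were in 3 of 7 macrophage-made promoters (C1qc, C5ar2 and Fcna), in 0 of the other 18 and in 10.6% of all. The TATA letters (TATAAA) were in C3ar1, Hc and Vtn and in 12.4% of all, and an IRF motif was in Cd59a and in 2.98% of all. Motifs of HNF4 (CAAAGTCC), NF-kB (GGGANTTCC) and STAT (TTCCNGGAA) were in none of the 25 and each in at most 1.43% of all promoters.

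The C1q genes were the most abundant of the complement transcripts, whereas other recognition molecules ranged widely in level. C1qa, C1qb and C1qc encode the chains of C1q and lie side by side on chromosome 4, from 136880129 to 136898803 on the minus strand of mm10 (GRCm38), within 18.7 kb. C1qb (ENSMUSG00000036905) had 1632 FPKM in control and 1307 in knockout cells and ranked at 53 and 49 of 36458 genes. C1qa (ENSMUSG00000036887) had 1546 and 1142, and C1qc (ENSMUSG00000036896) had 1364 and 982. The C1q genes together made up 57.3% of the summed FPKM of all 33 complement genes in control cells and 54.9% in knockout cells. Their log2 fold changes were −0.46 for C1qa (counting interval −0.50 to −0.43), −0.35 for C1qb (−0.38 to −0.31) and −0.50 for C1qc (−0.54 to −0.46), each under 1.5-fold, and they kept this sign under every scaling, while with the trend of fold change with transcript length removed C1qb stood at 0.0019. The chains stayed in close proportion, with C1qb at 1.06 times C1qa in control and 1.15 times in knockout cells, and C1qc at 0.882 and 0.860 times.
Fcna encodes ficolin A, a lectin pathway recognition molecule made by macrophages. It was lower in knockout cells, with 561 FPKM in control and 307 in knockout cells, at a log2 fold change of −0.89 (−0.95 to −0.84), the only macrophage-made gene past 1.5-fold. The hepatocyte-made recognition molecules were lower still. Mbl2 (mannose-binding lectin C) had 32.9 and 7.41 FPKM, at a log2 fold change of −2.16 (−2.55 to −1.79), the lowest value of all the complement genes. Mbl1 (mannose-binding lectin A) had 6.67 and 2.14, at a log2 fold change of −1.62 (−2.25 to −1.03) from about 89 and 33 reads.

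The proteases that act directly behind these molecules were split in direction. C1ra and C1s1 encode the proteases C1r and C1s of the classical pathway, which stromal cells also make. C1ra had 33.0 FPKM in control and 35.1 in knockout cells, with a counting interval of −0.067 to 0.19 that held 0. C1s1 had 38.7 and 46.9, at a log2 fold change of 0.25 (0.14 to 0.37). Neither was past 1.5-fold. Reads of C1ra and C1s1 may be shared with their near-identical copies C1rb, which was not found, and C1s2, which had 0 and 0.069 FPKM.
The mannose-binding lectin proteases moved apart. Masp1 (ENSMUSG00000022887, chromosome 16 from 23449417 to 23520815) had 5.38 FPKM in control and 10.8 in knockout cells, at a log2 fold change of 0.97 (0.76 to 1.18). Masp2, which cleaves C4 and C2, had 7.83 and 2.34, at a log2 fold change of −1.72 (−2.12 to −1.34). The ratio of Masp1 to Masp2 was 0.688 in control and 4.63 in knockout cells. Masp1 can be transcribed by stellate cells as well as by hepatocytes, and its difference stood beside a median of 0.49 over 9 stellate cell and myofibroblast markers. With the length trend removed Masp1 stood at 0.72 and the median of these markers at 0.17. Whether stellate cell RNA had a part in the higher Masp1 was not tested.

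**Figure D2:**
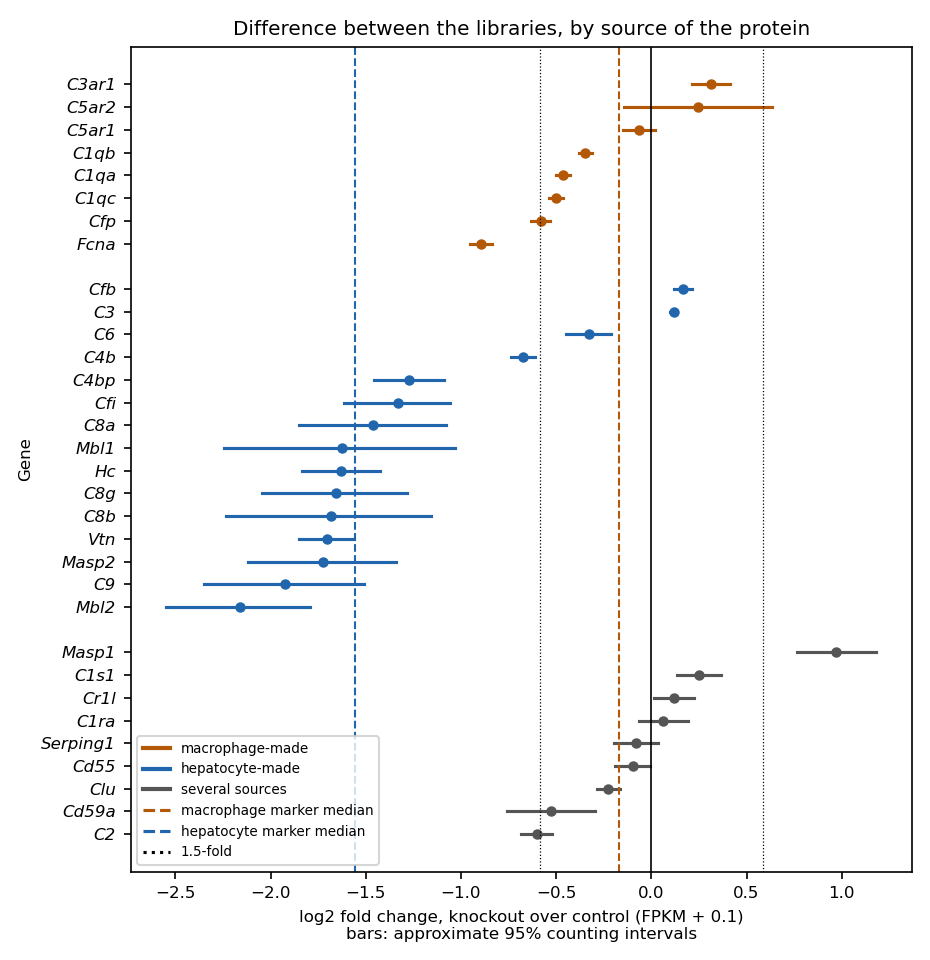
Log2 fold changes of 32 complement genes, knockout over control, with approximate 95% counting intervals as bars, dotted lines at 1.5-fold and dashed lines at the medians of the macrophage markers (−0.17) and the hepatocyte markers (−1.56). Of the 15 hepatocyte-made genes, 11 lie around the hepatocyte line, and C4b, C6, C3 and Cfb lie apart from it.

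The components of the C3 convertases, the enzyme complexes that cleave C3, held the largest exceptions among hepatocyte-made genes. C3 (ENSMUSG00000024164, chromosome 17 from 57203970 to 57228136), the protein on which all pathways converge, had 812 FPKM in control and 897 in knockout cells. Its log2 fold change was 0.12 (0.098 to 0.14), which turned to −0.13 with the length trend removed. Cfb (factor B, the protease of the alternative pathway convertase) had 270 and 308, at a log2 fold change of 0.17 (0.12 to 0.21). Both genes are known to be induced in macrophages and other cells by inflammation, beside their expression in hepatocytes. Neither gene was past 1.5-fold, whereas Alb over the same libraries was lower, so that the ratio of C3 to Alb was 0.354 in control and 0.984 in knockout cells.
C4b (complement C4) had 97.3 and 62.1 FPKM, at a log2 fold change of −0.67 (−0.74 to −0.61), past 1.5-fold except under equal-sum scaling or with the macrophage markers centred at 0. Its near-identical copy C4a had 4.70 and 3.97, and reads may be split between them. C2 (the protease partner of C4) had 113 and 75.8, at a log2 fold change of −0.60 (−0.69 to −0.52) at the edge of 1.5-fold. C2 and Cfb are uncertain relative to each other, because the deposited C2 entry, on chromosome 17 from 34856412 to 34898265, spans Cfb. Cfp (properdin, which stabilizes the alternative pathway convertase) had 539 and 367 FPKM, at a log2 fold change of −0.58 (−0.63 to −0.53), just inside 1.5-fold. The Cfp value was −0.39 under equal-sum scaling and −0.33 with the length trend removed. Cfd (factor D, made chiefly by fat cells) was listed at 0 in control and had 0.127 in knockout cells, about 1 read, so no fold is given.
Properdin is also made by neutrophils, and all 6 neutrophil markers were at least 1.5-fold lower, beside 13.2% of all genes, with a median log2 fold change of −1.55. With the length trend removed the median of these markers was −1.16. Their summed FPKM was 2117 in control and 845 in knockout cells, S100a9 was the most abundant at 1258 and 504, and Ly6g was listed at 0 in knockout cells. The part of neutrophil RNA in the lower Cfp was not tested.

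The 6 terminal pathway genes among the 33, whose proteins take part in the membrane attack pore, were lower, C6 by less than 1.5-fold. A further pore gene, C7, was below the filter at 0.080 and 0.395 FPKM, from about 2 and 11 reads. Hc (hemolytic complement, the C5 gene) had 14.1 FPKM in control and 4.56 in knockout cells, at a log2 fold change of −1.63 (−1.84 to −1.43). C9, which polymerizes into the pore, had 11.6 and 3.05, at a log2 fold change of −1.92 (−2.35 to −1.51). With the chains of C8 counted, 5 of these 6 genes were at least 1.5-fold lower, beside 13.2% of all genes.
The 3 genes of the C8 chains had log2 fold changes near each other, at different levels. C8a had 5.80 and 2.08 FPKM, C8b had 5.78 and 1.76, and C8g had 23.5 and 7.51. Their log2 fold changes were −1.46, −1.68 and −1.66, with intervals that overlapped. C8a and C8b lie 11.1 kb apart on chromosome 4, and C8a was at 1.18 times C8b in knockout cells. C8g, on chromosome 2, was at 4.06 times C8b in control and 4.25 times in knockout cells. C6 differed least, with 46.8 FPKM in control and 37.9 in knockout cells, at a log2 fold change of −0.33 (−0.45 to −0.21). That value stood beside medians of −0.17 for the macrophage markers and −1.56 for the hepatocyte markers. Which cells held the C6 RNA was not tested. C6 was also the most abundant terminal gene in both libraries, and the ratio of C3 to Hc was 57.8 in control and 197 in knockout cells.

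The 4 exceptions, C3, Cfb, C4b and C6, chosen after their values were seen, set the total of the hepatocyte-made group. Their class rests on general knowledge of the protein source, and which cells held their RNA here was not tested. Summed over the 15 genes the level was 1471 FPKM in control and 1383 in knockout cells, of which C3 alone was 55.2% and 64.9%. The 4 exceptions summed to 1226 and 1306. The other 11 summed to 245 and 77.6. All 11 were at least 1.5-fold lower, beside 13.2% of all genes, a count partly fixed by choosing the exceptions on their values. They lay between −2.16 and −1.27 on the log2 scale with the median at −1.66. Among all 15 hepatocyte-made genes, 12 were at least 1.5-fold lower. The 17 hepatocyte markers spanned −1.92 to −0.73 with a median of −1.56, and 10 of the 15 hepatocyte-made complement genes lay within 0.5 of that median. The part of a smaller amount of hepatocyte RNA in these values was not tested.

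**Figure D3:**
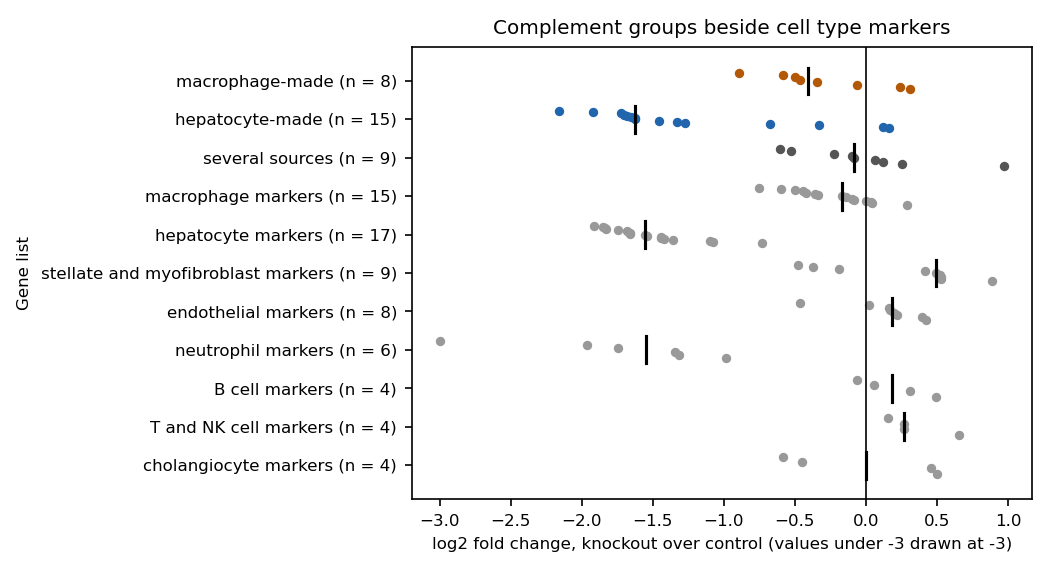
Log2 fold changes of single genes (points) and their medians (black bars) for the complement groups and for cell type marker lists, knockout over control, with Ly6g drawn at −3. The hepatocyte-made group has its median at −1.62 beside −1.56 for the hepatocyte markers. The macrophage-made group has its median at −0.41 beside −0.17 for the macrophage markers. With the length trend removed the last pair is in the reverse order, −0.057 beside −0.14.

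Of the 5 soluble regulators, 3 were at least 1.5-fold lower, beside 13.2% of all genes. Vtn (vitronectin, which blocks pore assembly) had 97.4 FPKM in control and 30.4 in knockout cells, at a log2 fold change of −1.70 (−1.85 to −1.56). C4bp (C4b-binding protein) had 21.3 and 8.91, at a log2 fold change of −1.27 (−1.46 to −1.09), and Cfi (factor I, which degrades C3b and C4b) had 18.5 and 7.44, at a log2 fold change of −1.33 (−1.61 to −1.05). All 3 are hepatocyte-made and past 1.5-fold.
The regulators with several sources differed little. Clu (clusterin) had 290 and 253 FPKM, at a log2 fold change of −0.23 (−0.29 to −0.17) that turned to 0.020 with the length trend removed. Serping1 (C1 inhibitor) had 78.4 and 75.4, with an interval of −0.19 to 0.033 that held 0. Vtn was above Serping1 in control and below it in knockout cells.

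Membrane regulators protect the cell that carries them. Cd55 (decay-accelerating factor) had 66.3 FPKM in control and 63.1 in knockout cells, at a log2 fold change of −0.098 (−0.19 to −0.0081) that turned positive under equal-sum scaling (0.095). Cr1l (Crry, a rodent inhibitor of C3 convertases) had 35.3 and 39.0, at a log2 fold change of 0.12 (0.011 to 0.23). Cd59a (which blocks C9 insertion) had 22.5 and 15.9, at a log2 fold change of −0.53 (−0.76 to −0.30). The Cd59a value was −0.33 under equal-sum scaling and −0.28 with the length trend removed. None of the 3 was past 1.5-fold, and the near copy Cd59b had 1.31 and 0.761 FPKM from 8 and 5 reads.

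The anaphylatoxin receptors, which bind the small peptides cut from C3 and C5, had higher log2 fold changes than the other macrophage-made genes, by less with the trend of fold change with transcript length removed. C5ar1 had 97.7 FPKM in control and 95.2 in knockout cells, with an interval of −0.15 to 0.018 that held 0. C3ar1 had 34.5 and 43.7, at a log2 fold change of 0.31 (0.21 to 0.41). C5ar2, the second receptor for the C5 peptide, had 3.08 and 3.73, with an interval of −0.14 to 0.63 from 97 and 136 reads. None of these was past 1.5-fold. The 5 secreted macrophage-made products (C1qa, C1qb, C1qc, Cfp and Fcna) had values from −0.89 to −0.35, of which Fcna was past 1.5-fold.
The secreted products have shorter transcripts than the receptors. Fold change rose with length over all genes, from a median of −0.40 among the 1270 genes of shortest transcript (73 to 983 bases) to 0.42 among the 1270 of longest (6388 bases or more). The longest annotated transcript was 1040 bases for C1qa, 1088 for C1qb and 1374 for Fcna, against 2540 for C5ar1, 3429 for C5ar2 and 4305 for C3ar1. With the length trend removed the macrophage-made median moved from −0.41 to −0.057 and Fcna from −0.89 to −0.59, while the hepatocyte-made median moved from −1.62 to −1.37. The macrophage marker median was then −0.14 and the hepatocyte marker median −1.39. The receptors were then at 0.13 for C3ar1, 0.029 for C5ar1 and 0.21 for C5ar2, beside 0.0019 for C1qb and −0.12 for C1qa. C3 at 5136 bases, C4b at 5379 and Hc at 5445 were of like length and had log2 fold changes of 0.12, −0.67 and −1.63. With the length trend removed these were −0.13, −0.92 and −1.88.

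**Figure D4:**
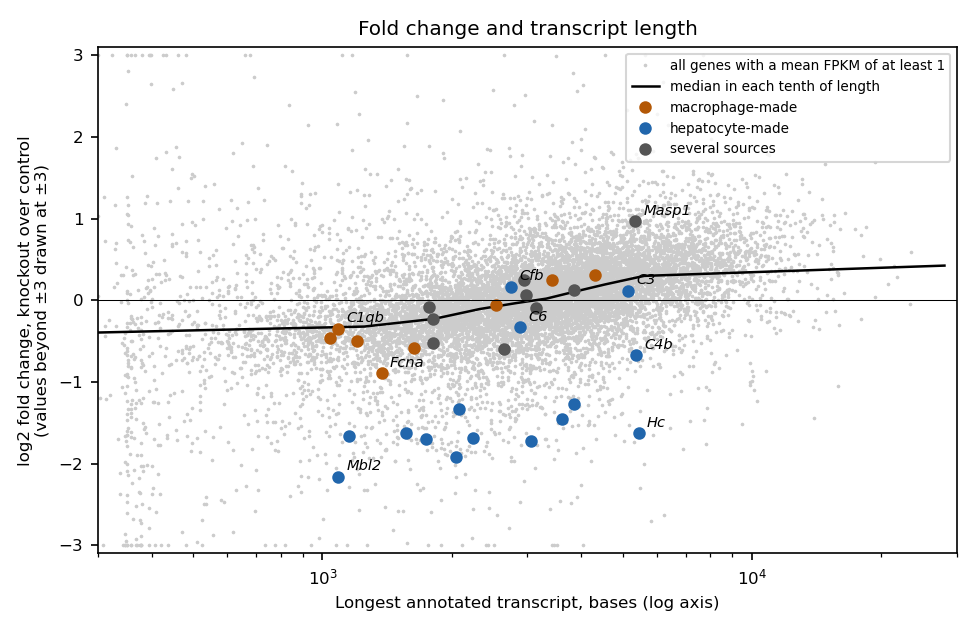
Log2 fold change against the longest annotated transcript (log axis), for all genes in grey with their medians in 10 classes of length as a line, and for the complement genes by source. The C1q genes lie close to the line, whereas 11 hepatocyte-made genes lie well below it at lengths from 1089 to 5445 bases. C4b also lies below it, at −0.92 with the length trend removed.

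Of 35 other genes of the pathway, 34 were found and 25 had a mean of at least 1 FPKM, of which 9 were at least 1.5-fold lower, where 13.2% of all genes were, and 4 higher, where 12.8% of all genes were. The 4 higher were thus near the share over all genes. The lower ones were mostly plasma proteins of hepatocytes. Apcs (serum amyloid P) had 13.4 FPKM in control and 3.60 in knockout cells, Crp (C-reactive protein) had 13.4 and 5.03, and Cpb2 and Cpn1, carboxypeptidase genes whose products trim anaphylatoxins, had 13.9 and 3.55, and 6.53 and 2.81. Cpn2 had 2.28 and 0.835, and C1rl had 3.89 and 1.98. Fcnb (ficolin B, a myeloid gene) had 2.54 and 0.590 from 24 and 6 reads, and Cd59b, at 8 and 5 reads, had a counting interval of −2.69 to 1.06 that held 0.
The higher ones included the iC3b receptor gene Itgam (CD11b), with 46.9 FPKM in control and 75.6 in knockout cells, at a log2 fold change of 0.66 (0.58 to 0.74). Its partner Itgb2 had 249 and 310 and Itgax (CD11c) had 21.7 and 32.7, both under 1.5-fold. Cd93 had 15.8 and 25.1, at a log2 fold change of 0.64. The C1q-related genes C1qtnf1 and C1qtnf6, which encode secreted proteins with a C1q-like domain, had 29.4 and 64.9, and 5.98 and 12.4, log2 fold changes of 1.11 and 1.02. Itgam and Cd93 were below 1.5-fold with the length trend removed (0.46 and 0.28).
Within 1.5-fold lay Vsig4, a C3b receptor of Kupffer cells, with 268 FPKM in control and 219 in knockout cells and a log2 fold change of −0.32. Calr had 483 and 515, C1qbp had 67.4 and 56.7, Thbd had 48.7 and 64.7, Ptx3 had 6.46 and 7.55, and Colec11 had 1.56 and 1.91.

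Genes that are neighbours on a chromosome did not always differ alike. The C1q genes had log2 fold changes near each other, as did C8a and C8b. C1rl (−0.96) lay 1.76 kb from C1ra (0.061) on chromosome 6.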

How the data were processed

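RNA-seq was performed by the authors on pooled adherent liver cells, with 1 library per genotype and single-end reads of 75 bases. The reads went through TopHat and Cufflinks, and the authors deposited an FPKM value for each Ensembl gene. mm10, TopHat and DESeq are named in the submitters' processing notes, and versions are not given in the sources used here. Symbols, coordinates and transcript lengths came from GENCODE M21 (GRCm38), which named 36490 of 38320 entries. Entries with a status other than OK (3) were left out, and for repeated symbols the entry with the highest mean was kept. Knockout values were divided by the median ratio of 11871 genes (1.02), and log2(FPKM + 0.1) was compared, a scale that understates differences near 0. The threshold of 1.5-fold is the fold criterion of the study. Its false discovery rate criterion was not applied, since no test was run. Read numbers were estimated from the spacing of low values of 6112 genes with a single transcript over 600 bases, assuming fragments of 200 bases. Whole reads (within 0.1) accounted for only 51.0% and 52.8% of these low values, and intervals (exact binomial, Clopper-Pearson) are rough. The procedure was tested on simulated data that held only counting error and whole reads. That test does not show how well the procedure works on these libraries.

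The complement genes, source classes, roles, motifs and lists were chosen with earlier results of these data known. Named were every complement gene, other pathway genes with a mean of at least 1 FPKM, of which a few are counted but not reported here by name, and leading markers. The lists held 15 macrophage, 18 hepatocyte, 12 stellate and myofibroblast, 8 endothelial, 6 neutrophil, 4 B cell, 4 T and NK cell and 4 cholangiocyte markers. 12 alternatives were planned and 1 was added after the data were seen. Promoter sequences are RefSeq's (GRCm38.p6). Foxf1 was not analysed here. The work used Python 3.11.15 with scipy 1.17.1, pandas 2.3.3, matplotlib 3.10.9 and numpy 2.4.6.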

Additional observations from a re-analysis of the deposited data

How the results depend on the processing

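No paired analysis was possible because the design held a single library for each genotype. Without a change to the gene list, the hepatocyte-made median ranged from −1.65 to −1.31, and its distance of 1.22 from the macrophage-made median from 0.90 to 1.31, over the scalings, pseudocounts, filters and length correction tried. The macrophage-made median of −0.41 became −0.21 under equal-sum scaling, −0.23 with the macrophage markers centred at 0, −0.36 with upper-quartile scaling, −0.46 with the filter at a mean of 5 FPKM and −0.057 with the length trend removed. Equal-sum scaling and centring on macrophage markers put the all-gene median at 0.20 and 0.18. From 11 to 14 complement genes were at least 1.5-fold lower. C2 was no longer among them with values as deposited, upper-quartile scaling or the length trend removed, and C2 and C4b with an equal FPKM sum or centring on macrophage markers. The number at least 1.5-fold higher was 1, with 2 without a filter, which added Cfd at about 1 read, and 0 at 2-fold. All genes at least 1.5-fold lower and higher numbered 1678 and 1624, against 1130 and 2690 with an equal FPKM sum, 1161 and 2573 with macrophage markers centred, 3225 and 3832 without a filter, 943 and 685 with the filter at 5 FPKM and 788 and 552 at 2-fold. Of the other pathway genes, 9 were lower and 4 higher, against 3 lower with the filter at 5 FPKM, 8 higher without a filter, and 2 higher at 2-fold or with the length trend removed. Signs changed for Serping1, Cd55 and C5ar1 under equal-sum scaling and centring on macrophage markers, and for C1qb, C3, Serping1, Clu and C5ar1 with the length trend removed. Leaving out C3, Cfb, C4b and C6, a choice made after seeing the data, gave a hepatocyte-made median of −1.66. Depth limits the scarce genes, such as Mbl1 at about 89 and 33 reads.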

Other observations

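Other cell type markers were read from the same libraries. Of 8 endothelial markers 7 were higher in knockout cells, none by 1.5-fold, with a median log2 fold change of 0.18 and Clec4g the most abundant at 254 and 187 FPKM. Stab2 had 64.0 and 85.9, Pecam1 93.3 and 96.6, and Lyve1 66.1 and 77.3. The 4 B cell markers had a median of 0.19, with Cd79a at 24.6 and 24.0 FPKM. The 4 T and NK cell markers had a median of 0.27, with Trbc2 at 20.3 and 32.6, and the 4 cholangiocyte markers had a median of 0.0040, with Krt19 at 39.7 and 29.5. With the trend of fold change with transcript length removed, the endothelial median was −0.022, the B cell median 0.35, the T and NK cell median 0.54 and the cholangiocyte median 0.095. Among the macrophage markers, 2 of 15 were at least 1.5-fold lower, near the 13.2% of all genes, and 0 higher.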
